A study of Arabidopsis thaliana with 16 samples.

Results

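Cytochrome P450 genes of Arabidopsis were followed here by the repressive histone mark H3K27me3 in young seedlings. The genes described are the protein-coding genes of the TAIR10 chromosomes whose symbol is written as CYP, a family number, a subfamily letter and a gene number. Chromosomes 1, 2, 3, 4 and 5 held 47, 32, 60, 41 and 36 of them, out of 27444 protein-coding genes in all, and they fell into 39 families and 59 subfamilies. The 4 CYP707A genes of abscisic acid breakdown and 4 genes of the thalianol and marneral clusters were left out by the same rule, as were P450 genes that the annotation lists under another symbol. A gene was called marked in a library when H3K27me3 peaks covered 50% or more of its body, from the annotated start to the annotated end. Peak lists were available for 12 ChIP-seq libraries of seedlings given 1% sucrose, with 2 replicates each of the wild type Col-0 and of the mutants *Atsdr4l-4* and *Atsdr4l-5*, taken 1 and 3 days after imbibition (DAI). Both *Atsdr4l* alleles carry a deletion in AtSDR4L, a co-repressor of the seed-to-seedling transition, in the Col-0 background. The 2 alleles were joined as *Atsdr4l* unless an allele is named. Whole seedlings were used, so that a body covered by a peak in some cells cannot be told apart from one covered in all cells. Whether replicates came from separate batches of seed is not stated in the sources used here, so the spread between them may be technical.

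P450 enzymes are haem-containing monooxygenases that insert an oxygen atom into small molecules, and plants have many more of them than animals. They build and break down hormones, sterols, carotenoids and the wax, cutin and suberin of outer walls, and they make most of the defence compounds of the cabbage family, such as glucosinolates and camalexin. Many of them lie next to close relatives that arose by tandem duplication. H3K27me3 is laid down by Polycomb repressive complex 2 (PRC2), covers whole gene bodies in plants and is known for keeping genes of other tissues, stages or stresses silent. VAL proteins recognise a DNA element called RY, and the authors found that AtSDR4L interacts with VAL2 but not with VAL1 in yeast. They reported another element, the G-box, as enriched at AtSDR4L sites and in regions preferred by VAL2, and RY in regions preferred by VAL1. The RY element and the telo-box have both been linked to PRC2 recruitment in Arabidopsis.

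The libraries behaved alike on genes with a known state. AGAMOUS, STM and WUS, developmental regulators that carry H3K27me3 in seedlings, were marked in 12 of 12 libraries, and ACTIN2, UBQ10 and GAPC2, which are active in all cells, had 0% of the body covered in every library. The lists held 6474 to 7068 peaks on chromosomes 1 to 5. They held no read counts, so the depth of the libraries is unknown, and precision is limited by having 2 libraries in a group.

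About 2 in every 5 P450 genes were marked 1 day after imbibition, and the share was larger at 3 DAI in each genotype. At 1 DAI, Col-0 had 92 and 89 marked members, *Atsdr4l-4* 96 and 95, and *Atsdr4l-5* 87 and 88. At 3 DAI, Col-0 had 126 and 117, *Atsdr4l-4* 113 and 119, and *Atsdr4l-5* 116 and 120. The time points did not overlap, with 87 to 96 members marked at 1 DAI and 113 to 126 at 3 DAI. The mean went from 91.2 ± 3.76 (SD, n = 6 libraries) to 118.5 ± 4.42, an increase of 30.0%, against an increase of 19.0% over all protein-coding genes. In shares, 42.2% of the members were marked at 1 DAI and 54.9% at 3 DAI, and 21.4% and 25.5% of all protein-coding genes. Peaks covered more of the whole genome at 3 DAI as well, with 21.3 to 25.3 Mb at 1 DAI and 24.9 to 28.2 Mb at 3 DAI, and the part of this in the members' result was not tested. The difference of 27.3 marked members was 27.2 when the same number of peaks was taken from each library. Since the lists held 6474 to 7068 peaks, this removes few peaks and leaves their width as it was. It cannot tell how the larger covered length bears on the result. Counts over members carry no p-value here, because the members are not independent of each other.

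**Figure D1:**
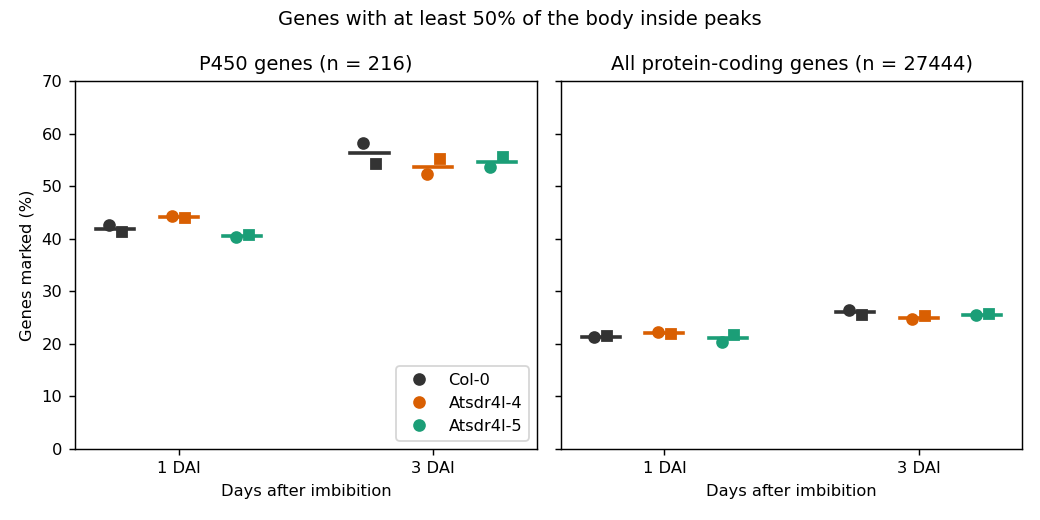
Share of genes marked with H3K27me3 (%, y axis) at 1 and 3 DAI, for the P450 genes (left) and all 27444 protein-coding genes (right). Each point is a library (circle, replicate 1; square, replicate 2), each line is the mean of 2 replicates, and colours give the genotype; the P450 points of 3 DAI all lie above those of 1 DAI, and all P450 points lie above those of all genes.

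Most members kept a single state across the 12 libraries. In all 12 libraries, 80 members (37.0%) were marked, and in none of them 87 (40.3%), against 17.8% and 70.6% of all protein-coding genes. No base was covered in any library for 63 members. The change in time came from 10 members (4.63%) that were marked in 6 of 6 libraries of 3 DAI and 0 of 6 of 1 DAI, and from 39 members that were marked in some libraries only. Over all protein-coding genes, 1.17% were newly marked in this way. The reverse pattern, marked in every library of 1 DAI and in none of 3 DAI, was seen in 0 members and in 0.0474% of all genes.

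**Figure D2:**
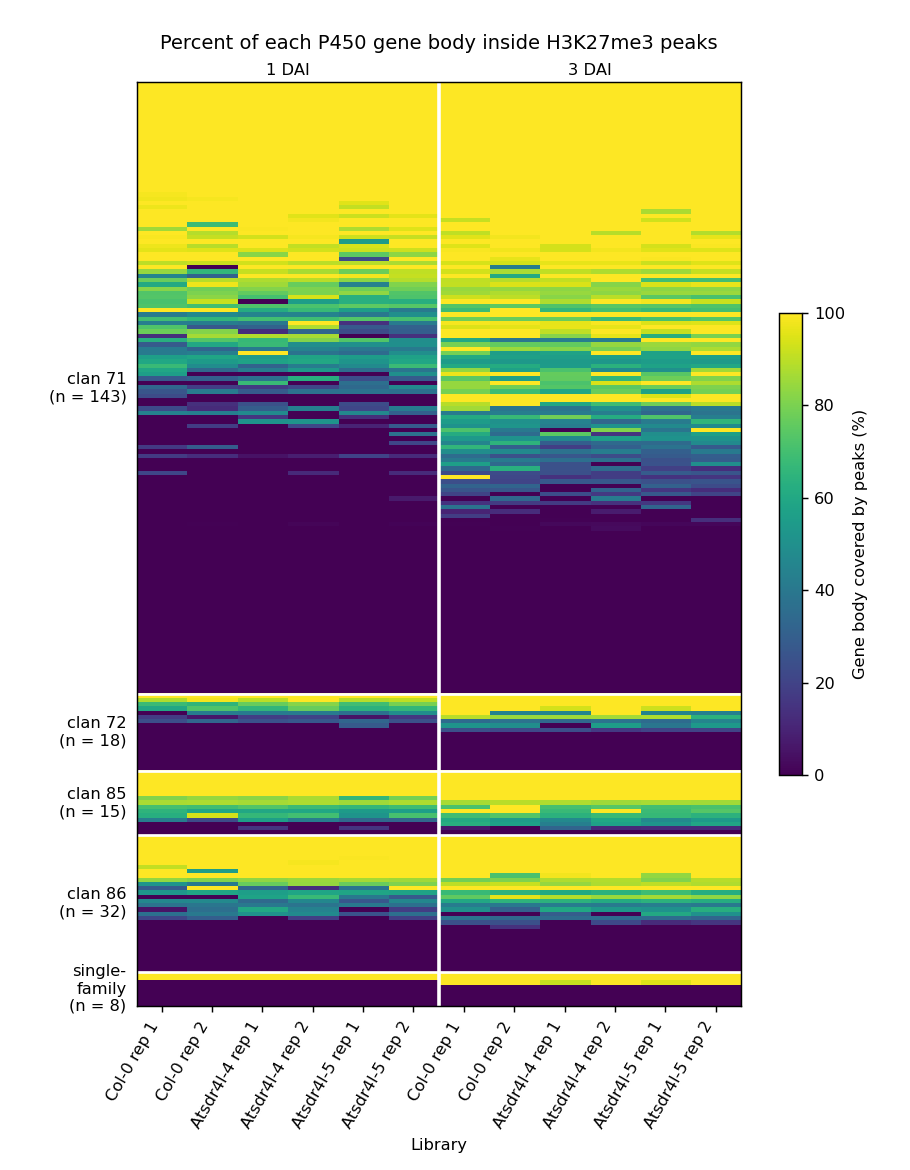
Percent of each gene body covered by H3K27me3 peaks (colour, 0 to 100) for the P450 genes (rows) in the 12 libraries (columns, 6 of 1 DAI on the left and 6 of 3 DAI on the right). Rows are grouped by clan and ordered by their mean within it; 80 members are marked in every library, 87 in none, and most rows between them are covered over more of the body at 3 DAI than at 1 DAI, CYP96A2 and CYP71B4 being the exceptions by their means.

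The larger marked share of P450 genes was also seen among genes of like structure. P450 genes had a median length of 2050 bp and a median of 2 exons, and all protein-coding genes 2080 bp and 4 exons. Among genes of 1500 to 3000 bp with 2 exons, 41.9% of 70 members were marked at 1 DAI on average, and 21.8% of all 1739 such genes. At 3 DAI the shares were 51.2% and 26.6%. Median lengths were close between states, at 2090 bp for members marked in all 12 libraries and 2050 bp for members marked in none. Peaks over members marked in all 12 libraries were wide and strongly enriched. The widest peak touching such a member had a median of 8410 bp, and their median enrichment over the body was 2.33-fold at 1 DAI and 2.62-fold at 3 DAI. For the newly marked members it was 1.71-fold at 1 DAI, over the 8 that had any peak then, and 2.33-fold at 3 DAI.

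The P450 clans, which group families by descent, differed in their marked share. The CYP85 clan of 15 members, to which enzymes of brassinosteroid and triterpenoid metabolism belong, had the highest share, with 74.4% marked at 1 DAI (range over libraries 73.3% to 80%) and 83.3% at 3 DAI (73.3% to 86.7%). The symbol rule left out CYP85A1, CYP85A2, CYP90A1, CYP90B1 and CYP90C1 of this clan, so that CYP90D1 alone stands here for its listed brassinosteroid enzymes. The share is that of the genes the rule left, of which 6 are CYP702A. The CYP71 clan of 143 members, which holds most enzymes of specialised metabolism, had 42.1% (39.9% to 44.8%) and 55.9% (53.8% to 60.1%). The CYP86 clan of 32 members, known for fatty acid hydroxylases, was close to it, with 43.2% (40.6% to 50%) and 53.6% (50% to 56.2%). The CYP72 clan of 18 members had 22.2% in every library of 1 DAI and 32.4% (27.8% to 38.9%) at 3 DAI. In the 8 members of single-family clans, 25.0% were marked in every library of 1 DAI and 37.5% in every library of 3 DAI. The ranges of the 2 time points did not overlap in the CYP71, CYP72 and single-family clans. They met at 50% in the CYP86 clan and overlapped in the CYP85 clan. No test was run between clans.

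**Figure D3:**
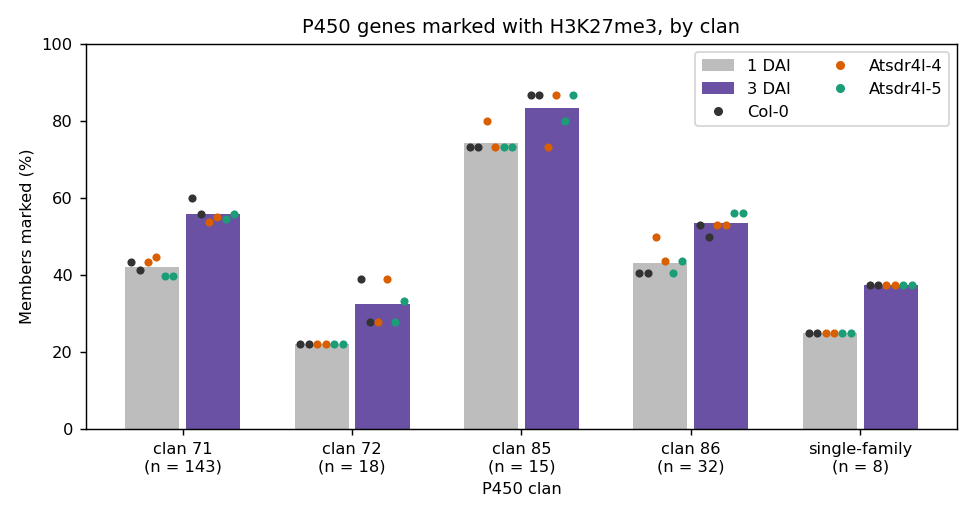
Share of members marked with H3K27me3 (%, y axis, from 0) in each P450 clan at 1 DAI (grey bars) and 3 DAI (purple bars); bars are means of 6 libraries and points are single libraries, coloured by genotype. The CYP85 clan has the highest bars and the CYP72 clan the lowest bar of 1 DAI.

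Within clans, subfamilies went different ways. Of 15 CYP71A genes, 11 were marked in all 12 libraries and 2 in none, while of 33 CYP71B genes 7 were marked in all 12, 12 in none and 13 in some libraries. The CYP702A genes, of the CYP85 clan, were marked in all 12 libraries for 5 of 6 members. Of 22 CYP705A genes 6 were marked in all 12 and 12 in none. Of 8 CYP72A genes 7 were marked in no library, and so were all 4 CYP77A genes. The share of marked genes differed most between time points in CYP706A (7 genes, 35.7% to 71.4%) and CYP76C (7 genes, 28.6% to 59.5%) among the subfamilies of 4 or more genes. The CYP706A shares include CYP706A1 and CYP706A2, whose values are uncertain because much of their sequence is repeated in the genome.

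By chromosome, the difference between time points was smallest on chromosome 1, where 53.5% of the members were marked at 1 DAI (range 53.2% to 55.3%) and 56.7% at 3 DAI (55.3% to 57.4%). It was largest on chromosome 5, with 38.0% (33.3% to 44.4%) and 58.8% (55.6% to 63.9%). None of the 10 newly marked members lay on chromosome 1.

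Known functions were read from lists of 75 enzymes, of which 59 meet the symbol rule. In all 12 libraries 28 of them were marked, in none 24, newly at 3 DAI 3, and in some libraries 4. The glucosinolate list of 9 members was mostly marked, with 6 in all 12 libraries. These were CYP79F1 and CYP79F2, which start the chain-elongated aliphatic pathway, CYP79B2 and CYP79B3, which turn tryptophan into indole-3-acetaldoxime, CYP83A1, which oxidises aliphatic aldoximes, and CYP81F3, a modifier of indole glucosinolates. CYP79B3 and CYP79F2 were covered over 100.0% in every library, and CYP79B2 over 69.8% to 75%. CYP83B1, the aldoxime-oxidising enzyme of the indole branch, had 0.0% in every library, and CYP81F2, needed for defence-linked indole glucosinolates, reached at most 48.0%. The camalexin and indole list had the same contrast between neighbouring steps. CYP71A12 and CYP71A13, which dehydrate indole-3-acetaldoxime, were covered over 100.0% in every library, and CYP71B6, which acts on indole-3-acetonitrile, over 0.0%. CYP82C2, of the 4-hydroxyindole carbonyl nitrile pathway, was covered over 92.3% to 99.0%.

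Hormone enzymes showed both states. CYP735A1 and CYP735A2, the cytokinin hydroxylases that make trans-zeatin, were marked in all 12 libraries and covered over 87.9% or more. CYP714A1, a gibberellin-inactivating enzyme, was covered over 60.1% to 76.6% at 1 DAI and 92.4% to 100.0% at 3 DAI, with no overlap between the time points. CYP88A3, the ent-kaurenoic acid oxidase KAO1 of gibberellin synthesis, had 0.0% in every library. In the strigolactone list CYP722A1 went from between 54.8% and 65.0% to between 67.9% and 100.0%, while CYP711A1, known as MAX1, had 0.0% throughout. CYP90D1, a hydroxylase of brassinosteroid synthesis, stayed between 85.8% and 89.2%. CYP72C1, which inactivates brassinosteroids, was covered over 23.9% to 33.0% at 1 DAI and 33.8% to 45.5% at 3 DAI and so was marked in no library.

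Members with roles in growth, sterols and walls also divided. CYP78A5, known as KLUH, a driver of organ growth, and its relative CYP78A8 were covered over 100.0% in every library, and CYP78A10 over 97.8% or more. CYP78A6 had 0.0% in every library, and CYP78A9 at most 17.3%, although both promote seed and organ size. Among the sterol C-22 desaturases, CYP710A3 and CYP710A4 were covered over 100.0% in every library, CYP710A1 over 0.0%, and CYP710A2 was newly marked. CYP51G1, the sterol demethylase that every cell needs, had 0.0%, as had CYP97A3 and CYP97B3 of carotenoid synthesis and CYP98A3 of lignin synthesis. Of the cutin, suberin and wax list, CYP86A1 and CYP86B1, which make suberin monomers, and CYP96A15, the midchain alkane hydroxylase of stem wax, were marked in all 12 libraries, and 5 of 9 members in none. All 4 pollen wall enzymes were marked in no library. CYP703A2, the lauric acid hydroxylase of pollen wall synthesis, had 0.0% at 1 DAI and 24.9% to 41.4% at 3 DAI. The list of terpene and coumarin enzymes was marked in all 12 libraries for 5 of 6 members, among them CYP82G1, which makes homoterpenes, and CYP82C4, which acts on coumarins under iron shortage, both covered over 100.0% in every library.

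The 10 newly marked members came from 4 clans. CYP71A26 had 0.0% of its body covered in each of the 6 libraries of 1 DAI and 100.0% in each of the 6 of 3 DAI. CYP710A2, a sterol C-22 desaturase, had 0.0% in all 6 libraries of 1 DAI, and at 3 DAI 100.0% in 4 libraries, 91.6% in an *Atsdr4l-4* library and 95.1% in an *Atsdr4l-5* library. CYP76C7 had 23.2% in a single Col-0 library of 1 DAI, 0.0% in the other 5 and 94.5% to 100.0% at 3 DAI. In these 3 genes the body was nearly empty in one time point and nearly full in the other. CYP71B5 had 0.0%, 13.8%, 24.9%, 0.0%, 23.3% and 0.0% in the libraries of 1 DAI, in the order Col-0, *Atsdr4l-4*, *Atsdr4l-5*, and 89.4%, 100.0%, 59.8%, 68.9%, 78% and 89.6% at 3 DAI. Its 3 DAI values were spread widely.

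The others were partly covered before. CYP81F4, an enzyme that modifies indole glucosinolates at the ring nitrogen, was covered over 39.9% to 49.7% at 1 DAI and 100.0% in every library of 3 DAI. CYP94B1, a 12-hydroxylase that inactivates jasmonoyl-isoleucine, was covered over 27.3% to 47.2% at 1 DAI and 59.8% to 64.8% at 3 DAI. CYP94B3, which has the same role, was marked in all 12 libraries, with 52.7% to 58.6% at 1 DAI and 60.8% to 68.9% at 3 DAI, and CYP94C1, which oxidises the same hormone further, had 0.0% throughout. The jasmonate enzymes thus included an unmarked, a newly marked and a marked gene. CYP715A1 went from between 5.08% and 20.2% to between 64.4% and 89.1%. CYP81D1 went from between 17.0% and 47.5% to between 73.2% and 84.1%. CYP76C4, of a subfamily that oxidises monoterpene alcohols, went from between 26.2% and 41.7% to between 57.8% and 79.1%. That the time points do not overlap in these genes follows from how newly marked was defined. CYP706A1 had 32.1% to 44.6% at 1 DAI and 79.6% to 100.0% at 3 DAI. Of its 100-base stretches 39.9% occur elsewhere in the genome, as do 52.1% of those of CYP706A2 nearby. Reads from such stretches cannot be placed uniquely and a filter on mapping quality removes them, so the values of these genes are uncertain.

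**Figure D4:**
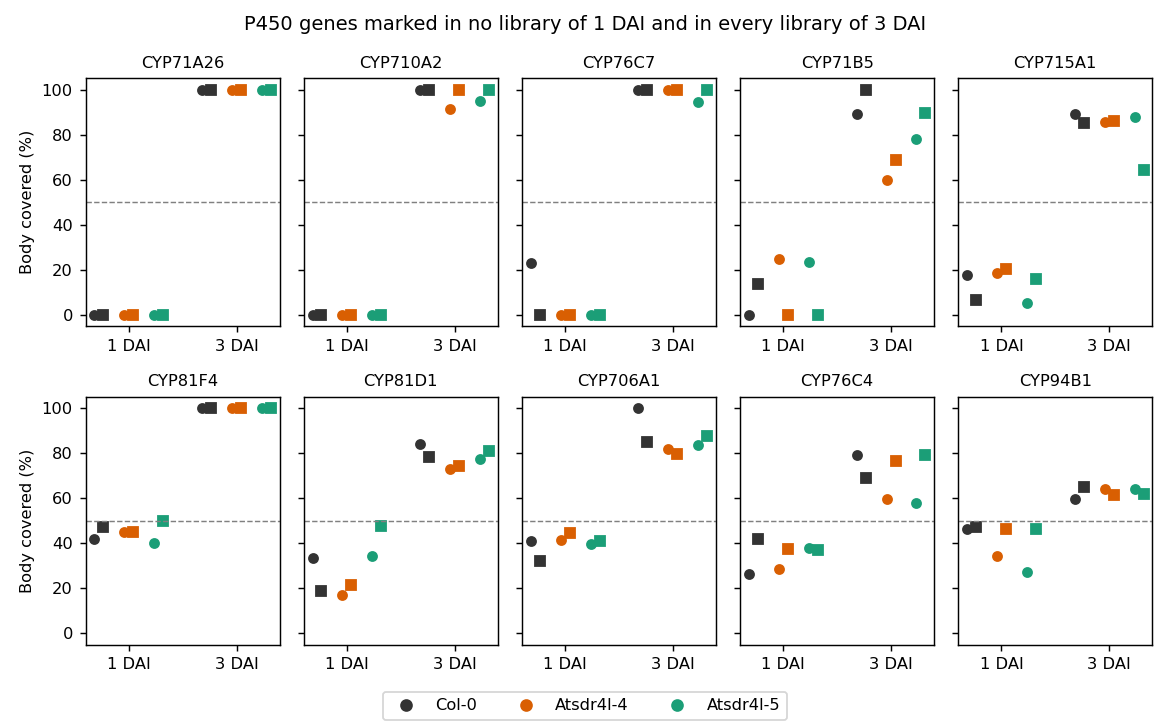
Percent of the gene body covered by H3K27me3 peaks (y axis) in each library of 1 and 3 DAI for the 10 newly marked P450 genes. Each point is a library (circle, replicate 1; square, replicate 2; colour, genotype) and the dashed line is the 50% that makes a gene marked; CYP71A26 and CYP710A2 start at 0.0% and CYP81F4, CYP81D1, CYP706A1, CYP76C4, CYP94B1 and CYP715A1 start partly covered.

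In 6 of the 10, a base was covered in every library of 1 DAI, and in 2, CYP710A2 and CYP71A26, in none. Over all 320 newly marked protein-coding genes, 13.1% had a covered base in every library of 1 DAI and 51.6% in none. Among the larger set of genes that were higher at 3 DAI with the smallest p of an exact permutation test, these shares were 47.7% and 22.7% for 44 members and 41.2% and 27.6% for 1629 genes, which lie closer together. Each body was divided into 5 bins of equal length, numbered from the start of the gene. At 1 DAI, CYP81F4 was covered over 100.0% of bin 1, 99.9% of bin 2, 23.7% of bin 3 and 0.0% of bins 4 and 5. CYP94B1 had 78.3%, 100.0% and 28.3% in bins 1 to 3 and 0.0% in the others. In both, the peak lay over the start of the gene at 1 DAI and reached further towards the end at 3 DAI, where bin 4 was covered over 100.0% in CYP81F4 and 19.3% in CYP94B1. CYP715A1 had 70% of bin 1 and 0.0% of bins 3 to 5 covered at 1 DAI, and 100.0% of bins 1 to 3, 87% of bin 4 and 28.2% of bin 5 at 3 DAI. The other 3 of these 6 genes differed. In CYP76C4 and CYP81D1 less of bin 1 was covered at 1 DAI, 17.0% and 32.2%, and bin 2 was covered the most. CYP706A1 had 91.8% of bin 5 covered at 1 DAI and 0.0% of bins 3 and 4.

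Members marked in some libraries ranged from genes at the threshold to genes that varied between replicates. CYP84A4, a relative of the ferulate hydroxylase of lignin synthesis, had 0.0% in each library of 1 DAI and 46.3% to 56.1% at 3 DAI, on both sides of 50%. CYP86A7, of the cutin hydroxylases, had 100.0% in 2 libraries of 1 DAI, 1 of Col-0 and 1 of *Atsdr4l-5*, and 13.0% to 38.7% in the other 4, and 100.0% in every library of 3 DAI. CYP714A2, a relative of CYP714A1 that also inactivates gibberellins, had 0.0% to 49.0% at 1 DAI, and at 3 DAI 100.0% in 2 libraries and 43.3% to 45.6% in 4. In the last 2 genes a single library could hold a full or a partial peak whatever its genotype. On the other side of the threshold, CYP81H1, counted as marked in all 12 libraries, had 51.7% to 60%, and CYP81D7, counted as marked in none, had 0.0% at 1 DAI and 30.4% to 49.2% at 3 DAI. Coverage lower at 3 DAI was rare. CYP96A2 had 25.3% to 50.4% at 1 DAI, and at 3 DAI 0.0% in both Col-0 libraries, 29.5% and 0.0% for *Atsdr4l-4*, and 60.5% and 50.7% for *Atsdr4l-5*, so that the time points overlapped. CYP96A2 and CYP81H1 were picked for this after their values were seen.

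Each gene was also tested by itself, with an exact permutation test of the time labels within genotype, two-sided, on the percent of the body covered. The smallest p it can give is 0.00926, and p-values were adjusted by the Benjamini-Hochberg method over the 10227 protein-coding genes with a covered base in any library, among them 153 members. The smallest p was reached by 44 members (28.8% of those tested), all higher at 3 DAI, and by 15.9% of all tested genes in that direction. The adjusted p at this limit was 0.0538, so that 0 genes passed 0.05 in the exact test, and at an unadjusted p under 0.05 there were 60 members (39.2%) against 24.3% of all tested genes. Where genes covered by less than 10% in all but 1 library were left out, the same 44 members stood at an adjusted p of 0.0487, now past 0.05, with 17.6% of the 9149 genes tested. A linear model fitted across all genes with limma called 54 members higher (35.3%, adjusted p under 0.05) and 0 lower, with 19.3% of all tested genes higher. The median difference was 5.21 percentage points over the tested members and 1.36 over all tested genes. Of the 44 members, 30 belong to the CYP71 clan, 5 to the CYP72 clan, 5 to the CYP86 clan, 3 to the CYP85 clan and 1 to a single-family clan. They include all 10 newly marked genes, 18 marked in some libraries, 8 marked in all 12 and 8 that stayed under 50% in every library. That all 10 newly marked genes are among them was fixed in advance, since by their definition the time points cannot overlap.

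Tandem arrays held members of each state. Of all members, 107 lie in 34 runs in which the next protein-coding gene is also a member, and 13 of these runs were uniform, 7 with every gene marked in all 12 libraries and 6 with every gene marked in none. In 9 runs, genes marked in all 12 and in none stood side by side or close together. CYP705A15, CYP705A18, CYP705A19, CYP705A20, CYP705A21, CYP705A22 and CYP705A23 (chr3:7007869-7030897) made the longest uniform run, marked in no library, and the 6 CYP72A genes from CYP72A7 to CYP72A13 (chr3:4912324-4927607) the next. The longest run of all, the 9 CYP71B genes from CYP71B16 to CYP71B24 (chr3:9565627-9599988), was mixed. In it CYP71B21 and CYP71B22 were covered over 100.0% in every library, CYP71B3 over 0.0%, and CYP71B23 went from between 0.0% and 28.9% to between 42.5% and 52.1%.

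The run of 7 genes beside it, CYP71B25 to CYP71B37 (chr3:9627562-9648658), also held genes of different states. CYP71B25 at the left end was covered over 95.7% or more in every library, and CYP71B37 at the right end over 0.0%. CYP71B26 had 0.0%, 0.0%, 67.8%, 0.0%, 36.4% and 0.0% at 1 DAI, in the order Col-0, *Atsdr4l-4*, *Atsdr4l-5*, and 71.5% to 100.0% at 3 DAI. CYP71B35 had 56.1% and 49.9% in 2 libraries of 1 DAI, 0.0% in the other 4, and 73.9% to 100.0% at 3 DAI. CYP71B36 had 27.7% to 87.5% at 1 DAI and 94.8% to 100.0% at 3 DAI. CYP71B26 and CYP71B35 were covered in 2 libraries each at 1 DAI and CYP71B36 in all 6, and in none of the 3 genes did the time points overlap. In CYP71B4 and CYP71B34, also marked in some libraries, they did overlap. CYP71B4 had 49.4% to 81.5% at 1 DAI and 39.1% to 100.0% at 3 DAI. CYP71B34 had 0.0% in every library of 1 DAI and 0.0% to 100.0% at 3 DAI. In the run from CYP81H1 to CYP81D8 (chr4:17555899-17571743), CYP81H1 and CYP81D5 were marked in all 12 libraries, CYP81D8 had 0.0% in each, and CYP81D4, CYP81D3 and CYP81D2 between them had at most 21.2% in any library of 1 DAI. At 3 DAI CYP81D3 was covered over 42.8% to 78.3%, CYP81D2 over 29.9% to 64.5% and CYP81D4 over 13.1% to 63%.

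Adjacent members often differed in state. Of the 73 pairs of adjacent members, 40 had the same state over the 12 libraries and 33 did not, with median identities of their coding sequences of 76.8% and 81.3%. Identities ran from 23.0% to 96.2% over all pairs. Within single libraries, 67.1% to 78.1% of the pairs were both marked or both unmarked, and 72.1% to 76.6% of all adjacent protein-coding genes. Among pairs with a marked gene, both were marked in 39.4% to 55.8% of the member pairs and 26.9% to 30.9% of all adjacent genes. Both measures depend on the marked share, which was larger among the members. In 5 pairs a gene marked in all 12 libraries stood next to a gene marked in none, and their median identity was 75.7%. The closest of these was CYP89A6 and CYP89A5, 94.1% identical and 1991 bp apart. In CYP89A5 8.24% of the 100-base stretches occur elsewhere in the genome, so that repeated sequence covers little of it. Another was CYP71A22 and CYP71A21, 91.4% identical, of which CYP71A21 was covered over 7.56% on average at 1 DAI and 23.8% at 3 DAI.

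Several members often lay under a single peak. In the 12 libraries, 14 to 22 peaks each covered 50% or more of at least 2 members, and these held 33 to 52 of the marked members. The members are therefore not independent readings of the mark. In the stretch from CYP71A26 to CYP71A22 (chr3:17876571-17889942, 13.4 kb), 1 or 2 peaks covered 69.8% to 81.6% at 1 DAI, and the widest was 8.40 to 11.8 kb. At 3 DAI a single peak covered 100.0% of it in each of the 6 libraries and was 15.2 to 15.7 kb wide. The added part held CYP71A26. The left edge of this peak stood at position 17875818 and 17875817 in Col-0 and between 17876279 and 17876347 in the *Atsdr4l* libraries, a difference seen in 2 libraries against 4. The widest peaks with members lay on chromosome 4, over CYP702A2, CYP702A3, CYP705A1, CYP705A2, CYP705A3 and CYP705A4 (chr4:8730499-8790589). CYP705A1 is known for cleaving the triterpene arabidiol. This stretch was covered over 92.8% to 100.0% in every library, by a single peak of 76.2 to 83.6 kb in 5 of the 12 and by 2 to 4 peaks in the others. The members with the longest covered length in all 12 libraries were CYP735A2 (median 3770 bp), CYP735A1 (3580 bp), CYP702A3 (3490 bp), CYP79F1 (3290 bp) and CYP76C6 (3250 bp).

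The 2 alleles joined overlapped with Col-0 in the number of members marked. At 1 DAI the mean was 90.5 ± 2.12 in Col-0 (SD, n = 2) and 91.5 ± 4.65 in *Atsdr4l* (n = 4), with both *Atsdr4l-4* libraries (96 and 95) above those of Col-0 (92 and 89) and both *Atsdr4l-5* libraries (87 and 88) below them. At 3 DAI 126 and 117 members were marked in Col-0 and 113 to 120 in *Atsdr4l*, which overlap. The difference at 3 DAI was -4.5 members, and it was 0.0 without Col-0 replicate 1 and -9.0 without Col-0 replicate 2. At 1 DAI the difference was 1.0, with 5.0 for *Atsdr4l-4* alone and -3.0 for *Atsdr4l-5* alone.

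In some members, coverage at 1 DAI did not overlap between Col-0 and *Atsdr4l*. Coverage of 6 members was higher in every *Atsdr4l* library than in both Col-0 libraries (2.78% of the members, 1.76% of all genes), and of 7 members lower (3.24%, 1.48% of all genes). Genes with no covered base in any library cannot differ in this way, and they were 29.2% of the members and 62.7% of all genes. The shares of members and of all genes are therefore not like for like. Of the genes with a covered base, 6 of 153 members and 484 of 10227 genes were higher, and 7 members and 407 genes lower. With 2 against 4 libraries, 1 of the 15 ways to divide them puts *Atsdr4l* wholly above Col-0 and 1 wholly below, so some genes will separate by chance. CYP78A7, a relative of KLUH that acts with it in organ growth, was covered over 77.4% and 81.3% in Col-0, against 13.1% and 33.1% for *Atsdr4l-4* and 23.3% and 29.8% for *Atsdr4l-5*. At 3 DAI it was covered over 100.0% in both Col-0 libraries and 90.5%, 100.0%, 91.4% and 100.0% in *Atsdr4l*. The gene (chr5:3111945-3114239, 2 exons) was thus marked in Col-0 and not in the mutants at 1 DAI, and in all 6 libraries at 3 DAI. CYP71B30P, annotated as protein-coding although its name carries the P of a pseudogene, had 100.0% in both Col-0 libraries of 1 DAI, 61.6% and 67.4% for *Atsdr4l-4* and 55.9% and 40.8% for *Atsdr4l-5*. At 3 DAI it had 68.6% and 100.0% in Col-0 and 66.4% to 70.6% in *Atsdr4l*, so that the groups overlapped. CYP76C2 was covered over 17.1% and 29.4% in Col-0 and 0.0% in all 4 *Atsdr4l* libraries at 1 DAI. CYP89A2 and CYP86A2, a fatty acid hydroxylase of cutin synthesis, were lower too, with mean differences of -36.2 and -16.1 percentage points.

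In the other direction, CYP705A30 (chr3:7339640-7341703) was covered over 45.0% and 31.4% in Col-0 at 1 DAI, against 100.0% in both *Atsdr4l-4* libraries and 98.1% and 91.3% for *Atsdr4l-5*. At 3 DAI it was covered over 100.0% and 60.8% in Col-0 and 100.0% in all 4 *Atsdr4l* libraries. The second Col-0 library was the lowest at both time points. CYP96A13, of the family of the stem wax enzyme, had 0.0% in both Col-0 libraries of 1 DAI, 58.0% and 67.9% for *Atsdr4l-4* and 40% and 27.9% for *Atsdr4l-5*, and at 3 DAI between 75.7% and 96% in all 6. CYP86C1 had 51.8% and 40.9% in Col-0 and 76.7% to 84% in *Atsdr4l* at 1 DAI, and 84% to 91.5% in all libraries of 3 DAI. The mutant values of CYP705A30 at 1 DAI lay among the values of 3 DAI, those of CYP86C1 just below them and those of CYP96A13 further below. CYP709B1 (10.3 percentage points) and CYP81D11 (3.34 percentage points), a gene induced by xenobiotics, differed by less.

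**Figure D5:**
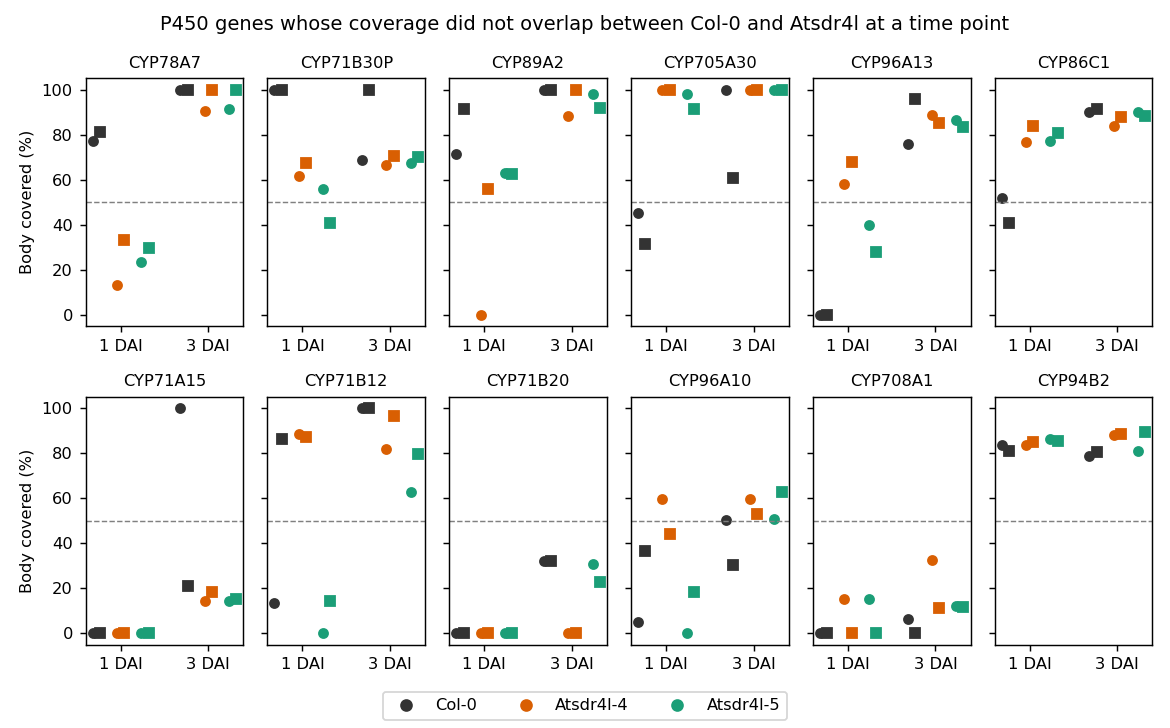
Percent of the gene body covered by H3K27me3 peaks (y axis) in each library for 12 P450 genes, the 3 largest differences in each direction among those whose coverage did not overlap between Col-0 and *Atsdr4l* at 1 DAI (top row) or at 3 DAI (bottom row). Each point is a library (circle, replicate 1; square, replicate 2; colour, genotype) and the dashed line is the 50% that makes a gene marked; CYP78A7 is above the line in Col-0 and below it in the 4 *Atsdr4l* libraries at 1 DAI.

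At 3 DAI, 6 members were higher in every *Atsdr4l* library (2.78%, 0.794% of all genes) and 10 lower (4.63%, 2.98% of all genes). As at 1 DAI, genes with no covered base lower the share of all genes more than that of the members. Of the genes with a covered base, 6 of 153 members and 218 of 10227 genes were higher, and 10 members and 819 genes lower. CYP71A15 had 0.0% in every library of 1 DAI, and at 3 DAI 100.0% and 21.1% in Col-0 and 14.4% to 18.3% in *Atsdr4l*. Its difference of -44.9 percentage points rested on a single Col-0 library. CYP71B12 had 100.0% and 100.0% in Col-0 and 62.6% to 96.4% in *Atsdr4l*. CYP71B20 had 31.9% and 32.1% in Col-0, 0.0% in both *Atsdr4l-4* libraries and 30.9% and 22.9% for *Atsdr4l-5*, so that the difference came mostly from 1 allele. CYP86A4, of cutin synthesis, and CYP71B13 had mean differences of -11.9 and -11.7 percentage points. Of the members higher in *Atsdr4l*, CYP96A10 had 50.2% and 30.3% in Col-0 and 50.9% to 62.6% in *Atsdr4l*. CYP708A1 had 6.19% and 0.0% in Col-0 and 11.4% to 32.4% in *Atsdr4l*, and CYP94B2, of the subfamily of the jasmonate hydroxylases, 78.6% and 80.7% against 80.9% to 89.2%. CYP712A2 and CYP71B36 differed by 4.25 and 3.00 percentage points.

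With 2 Col-0 and 4 *Atsdr4l* libraries at a time point there are 15 ways to divide them, and the smallest p is 0.0667, so no test was made within a time point. Over both time points, an exact permutation test of the genotype labels within time point, two-sided, has a smallest p of 0.00444. Adjusted over the 10227 genes, 0 members and 0 genes passed, and the smallest adjusted p was 0.692. limma, with an adjusted p under 0.05, called 3 genes, of which 0 were members. At an unadjusted p under 0.05 there were 8 members (5.23% of those tested), which is near the 4.97% of all tested genes. Higher in *Atsdr4l* were CYP705A30 (39.4 percentage points over both time points, exact p = 0.0222), CYP708A1 (10.8), CYP94B2 (4.95) and CYP77A5P (0.96). Lower were CYP71B30P (-29.6, exact p = 0.0133), CYP78A7 (-29.5, exact p = 0.0267), CYP76C2 (-21.1, exact p = 0.0133) and CYP82C2 (-2.65). CYP77A5P is named because it completes this count, after its values were seen. The number of such members was 4 when Col-0 replicate 2 of 1 DAI or Col-0 replicate 1 of 3 DAI was left out.

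Whether the difference between genotypes changed between time points was tested by permuting genotype labels within each time point. An unadjusted exact p under 0.05 was found for 4 members (2.61% of those tested, 2.39% of all tested genes), and the smallest adjusted p of this test over all tested genes was 1.0. limma with a term for this change, an analysis added after the data were seen, gave a different count at an adjusted p under 0.05. It called 3 members and 1.97% of all tested genes. These members were CYP86C1 (-36.5 percentage points, limma adjusted p = 0.00311), CYP78A7 (50, limma adjusted p = 0.0107) and CYP78A10 (-1.67, limma adjusted p = 0.028). CYP78A10 was covered over 97.8% and 98.8% in Col-0 at 1 DAI and 100.0% in the other 10 libraries. In CYP86C1 the difference was 33.2 percentage points at 1 DAI and -3.28 at 3 DAI, a change of -36.5 (exact p = 0.00889). The others were CYP706A1 (exact p = 0.0267), CYP81D11 (0.0356, exact test) and CYP71B32 (0.04, exact test), the last of which was named after its values were seen.

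The DNA just before the annotated starts was read from the TAIR10.1 assembly. RY was looked for as the element that VAL proteins recognise, and the G-box as the motif that the authors reported at AtSDR4L sites. In the 250 bases before the start, RY (CATGCA, either strand) was present in 39 members (18.1%) and in 8.43% of all protein-coding genes. By state it was present in 17.5% of the members marked in all 12 libraries, 20% of the newly marked, 23.1% of those marked in some libraries and 16.1% of those marked in none. Among all protein-coding genes these shares were 12.9%, 23.1%, 11.6% and 6.57%. Members marked in none therefore had RY at a share close to that of the marked members. The G-box (CACGTG, either strand) was present in 5.56% of the members and 6.49% of all genes, and the telo-box (AAACCCTA, either strand) in 4.17% and 4.49%. None of the 3 motifs contains another. These matches are letters in a window and say nothing of binding.

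The windows below are shown because they hold these letters next to genes described above, each as 30 bases on the strand of the gene, 5′ to 3′, with the motif in capitals. RY lay 154 bases before the start of the newly marked CYP71A26 (chr3:17876405-17876434, plus strand), 45 bases before CYP71B5 (chr3:19755632-19755661, plus strand), 215 bases before CYP705A30 (chr3:7339413-7339442, plus strand) and 183 bases before CYP96A13, there as the reverse complement (chr5:673865-673894, plus strand). RY also lay 63 bases before both CYP71A12 (chr2:13101417-13101446, minus strand) and CYP71A13 (chr2:13112034-13112063, minus strand), in windows that are nearly alike. The G-box lay 92 bases before CYP78A7 (chr5:3111841-3111870, plus strand) and the telo-box 87 bases before CYP71B30P (chr3:19758059-19758088, plus strand). An RY as the reverse complement, 156 bases before CYP71A26, overlaps the RY shown, so that its first letters stand in lower case. A further RY lay 243 bases before CYP705A30. CYP71A12 had a further RY at 110 bases and a telo-box at 78.
CYP71A26: aaaagactggtgCATGCAtaaatacataag
CYP71B5: aaaagccaacgaCATGCAttggctctatat
CYP705A30: gcaaatatttcaCATGCAcatatctataaa
CYP96A13: tatgtgataatgTGCATGtgttcacatata
CYP71A12: ccctataaatagCATGCAgaagatgagtta
CYP71A13: ccctataaatagCATGCAgaatatgagtta
CYP78A7: acctcctccctcCACGTGaatctctcccaa
CYP71B30P: tttttttttttAAACCCTAgttgaagataa
Of these genes CYP71A26 and CYP71B5 were newly marked, CYP705A30 and CYP96A13 were covered over more of the body in *Atsdr4l* at 1 DAI, CYP78A7 and CYP71B30P over less, and CYP71A12 and CYP71A13 were covered over 100.0% in every library. The windows of CYP78A7 and CYP71B30P show the other motifs, and 8 of the 10 newly marked members had none in this window. A link of motif and direction was not tested, and the windows shown do not stand for one. CYP81D11, higher in *Atsdr4l* at 1 DAI, had a G-box. At 3 DAI, RY stood before CYP94B2 and CYP96A10, which were higher in *Atsdr4l*, and before CYP71A15 and CYP86A4, which were lower.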

How the data were processed

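The H3K27me3 ChIP-seq libraries of seedlings, 12 in 6 groups of 2 by genotype and DAI, were grouped from the labels. The authors trimmed reads with fastp (0.23.4 in the processing notes), aligned them to TAIR10 with Bowtie 2, filtered on mapping quality with SAMtools and called broad peaks per library with MACS2 against joined mock IgG reads. The mock IgG libraries and an ABA-treated sample were not analysed here. In the deposited lists stand the authors' fold enrichment (a linear ratio), -log10 p and q, and a score made from q, which was not used. No depths are given, and peak number and width can grow with depth.

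The percent of each body covered by any peak was computed over RefSeq genes of TAIR10.1, in which every peak lies within the chromosome ends. Members, clans and role lists were chosen with earlier results of these data known. CYP91A2 was placed in the CYP71 clan by hand, outside the list of families. Named are newly marked members, up to 5 members per direction and time point whose groups do not overlap, role list members, the largest tandem runs and the 5 longest covered.

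Genes were tested by exact permutation and, as an alternative, limma 3.58.1 (R 4.3.3), with Python 3.11.15, numpy 2.4.6, pandas 2.3.3 and Biopython 1.88. The permutation test and limma were tested on simulated data. Alternatives were 25% and 75% of the body, peaks of -log10 q of at least 5 or at least 2-fold, equal peak numbers, 1 kb upstream, a filter, a replicate block and each library left out. The labels name no batch and do not say that replicates are separate cultures, so p-values measure the spread between libraries only.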

Additional observations from a re-analysis of the deposited data

Results flagged for a closer look

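In 7 of the 66 groups of 4 *Atsdr4l* libraries examined, over 32 named members and the count of marked members at both time points, a library stood apart from the other 3. For values that follow a normal distribution the cut-off gives about 1 in 20, or 3.3. Coverage does not, since 38.9% of the values of members were 0.0% and 29.6% were 100.0%. Most members were also named for their differences, so the 7 cannot be set against the 3.3. At 1 DAI, CYP71B36 was covered over 87.5% in *Atsdr4l-4* replicate 2 and 27.8% to 31.3% in the others. In *Atsdr4l-4* replicate 1, CYP89A2 was covered over 0.0% against 55.7% to 63%, and CYP76C4 over 28.6% against 36.8% to 37.9%. At 3 DAI, CYP708A1 had 32.4% in *Atsdr4l-4* replicate 1 against 11.4% to 12.2%. CYP715A1 had 64.4% in *Atsdr4l-5* replicate 2 against 85.6% to 87.9%. In *Atsdr4l-5* replicate 1, CYP76C7 had 94.5% against 100.0%, and CYP94B2 80.9% against 88% to 89.2%.

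The difference between *Atsdr4l* and Col-0 changed from 1 to 3 DAI, by the unadjusted exact permutation test, in 3 named members. The change was -36.5 percentage points in CYP86C1, -14.4 in CYP706A1 and -8.57 in CYP81D11. None passed adjustment over all tested genes in this test, where the smallest adjusted p was 1.0. limma, added after the data were seen, called CYP86C1 (adjusted p = 0.00311), CYP78A7 (0.0107) and CYP78A10 (0.028).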

How the results depend on the processing

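Of the 10 newly marked members, all 10 stayed newly marked with equal peak numbers (6474 per library) and 7 with -log10 q of at least 5. With 1 kb upstream added 6 did, and 5 each with 25% of the body, 75% of the body and at least 2-fold enrichment. All 10 also stayed so without any 1 library, but this was fixed in advance. The call asks for every library of 3 DAI and none of 1 DAI, so leaving out a library cannot undo it. The difference of 27.3 marked members between time points was 22.3 with 75% of the body and 32.2 with at least 2-fold enrichment. At least 2-fold enrichment also gave genotype differences of 4.75 at 1 DAI and -0.25 at 3 DAI, and 4 members with a genotype p under 0.05, as did -log10 q of at least 5 (4), against 8. Leaving out 1 library gave a genotype difference in marked members of -0.5 to 2.5 at 1 DAI and -9.0 to 0.0 at 3 DAI, and 4 to 9 members with a genotype p under 0.05; the alleles alone gave 5.0 (*Atsdr4l-4*) and -3.0 (*Atsdr4l-5*) at 1 DAI. The number of members past an adjusted p of 0.05 between time points was 0 in the exact test, 44 with the filter on low coverage, which tests fewer genes, and 54 with limma. Past an adjusted p of 0.05 for a change of the genotype difference between time points there were 0 members in the exact test and 3 with limma, an alternative chosen after seeing the data. The cause of the other shifts was not tested. Replicate numbers gave no sign of pairing the libraries. The differences between replicates correlated at -0.0602 to 0.119 between groups, and over 0.1 in 1 of 15 pairs of groups. A low correlation cannot exclude that libraries were handled together by replicate number. With the replicate block 0 members passed in either comparison, 45 members were higher at 3 DAI with p under 0.05 against 60, and 12 had a genotype p under 0.05 against 8. Of the alternatives for single named members, 470 kept their direction and their side of the threshold, 49 kept only the direction, 4 passed anew and 9 that had not passed changed sign. The threshold was an unadjusted p under 0.05 in the exact permutation test, and an adjusted p under 0.05 where limma was the alternative. In the newly marked members the time points stay apart whichever library is left out, so their part in the 470 was largely set by definition.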
